A study of Homo sapiens with 48 samples.

Results

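These results concern the line dependence of the response to STM2457 at 6 days. The members are the 8 libraries of 48 whose titles give 6D and 0h of actinomycin D. They form 4 groups of 2: Kelly with DMSO, Kelly with STM2457, NGP with DMSO and NGP with STM2457. Both lines are labelled genotype WT and MYCN-amplified neuroblastoma, and no other allele is given. Treated cells had 8 µM STM2457 for 6 days, and control cells had DMSO, the solvent, for as long. Cells of both lines grew in RPMI1640 with serum, and the 0 h libraries had no exposure to actinomycin D, which blocks transcription. The quantity described is the line difference: the STM2457 effect in NGP (STM2457 minus DMSO, log2) minus the same effect in Kelly. A positive line difference means a rise that was larger, or a fall that was smaller, in NGP. No label states that replicates came from separate cultures, so p-values measure only the spread between these libraries, which may be technical. Each line stands for itself alone, since no other MYCN-amplified line was in the contrast.

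STM2457 is a small molecule that blocks the catalytic activity of METTL3, the enzyme that writes N6-methyladenosine (m6A) on nascent mRNA together with METTL14 and WTAP. The mark is read by YTH-domain proteins, which alter how long a transcript lasts and how it is translated. Neuroblastoma arises in the sympathetic neural crest lineage, and its cells can hold an adrenergic identity, kept by factors such as HAND2, or a more mesenchymal one, marked by genes such as VIM. Cells can also mount an amino acid response, in which the factor ATF4 raises genes for amino acid import, amino acid synthesis and tRNA charging.

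The 8 libraries held 13807701 to 19291613 fragments in genes, with 0.306 to 0.364% of fragments from ERCC spike-ins and 4.62 to 7.38% from mitochondrial genes. Levels below are CPM, counts scaled to a common TMM library size, with the replicates in order of their number. Effects are log2 differences ± SE from 1 edgeR quasi-likelihood fit, and a gene is called where its Benjamini-Hochberg adjusted p is under 0.05. Of 12 sympathetic lineage markers, all were detected in both lines, but TH, the enzyme that starts catecholamine synthesis, was at 199 to 327 CPM in Kelly and at 0.116 to 1.05 in NGP. Markers of other cells summed to 1.99 to 5.84 CPM (Schwann, 5 genes), 2.55 to 16.2 (leukocyte, 6), 0.664 to 7.58 (endothelial, 6) and 4.51 to 9.82 (epithelial, 6). The fibroblast list summed to 127 to 210 CPM, from PDGFRB, THY1 and COL1A1 in both lines, while DCN and COL1A2 were at 0 to 0.780 CPM. TIE1 (endothelium) was at 0 in all 8 libraries. METTL3 is the target of STM2457, but the drug acts on its protein, so the transcript does not check the labels. Its level was 47.6 and 53.9 CPM in Kelly DMSO, 51.4 and 64.4 in Kelly STM2457, 50.2 and 58.2 in NGP DMSO and 56.8 and 55.8 in NGP STM2457, with a line difference of -0.14 ± 0.24 that was not called. The TOX4 gene shares 6.62% of the exon bases of METTL3, and the counting is not stated to use strand. MYCN, the amplified oncogene, was at 4528 and 4314 CPM in Kelly DMSO, 4904 and 4707 in Kelly STM2457, 6678 and 8770 in NGP DMSO and 6988 and 7620 in NGP STM2457. Its line difference was -0.20 ± 0.092 and not called (adjusted p = 0.435). Without NGP DMSO replicate 1, the lowest of the 4 NGP libraries, it was -0.38 and passed.

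At 6 days the response to STM2457 differed between the lines for 303 of 17343 genes tested (1.75%), with 120 positive (0.692%) and 183 negative (1.06%) differences. In Kelly alone 662 genes were called (3.82%; 409 higher under STM2457, 2.36%, and 253 lower, 1.46%), and in NGP 887 (5.11%; 498 higher, 2.87%, and 389 lower, 2.24%). A call in 1 line only was seldom a called difference: of 622 genes called in NGP and not in Kelly, 156 (25.1%) differed between lines, and of 397 called in Kelly and not in NGP, 79 (19.9%). Among genes called in both lines with the same sign, 32 of 248 (12.9%) differed in size. The 303 genes fell into 16 with opposite calls in the lines and at least 1 CPM in each, 148 called in NGP only, 76 called in Kelly only, 32 called in both with the same sign, 16 called in neither line alone, and 15 that averaged under 1 CPM in a line. For 101 of the 148 NGP-only genes the 95% interval of the effect in Kelly lay within -0.5 to 0.5, and for 43 of the 76 Kelly-only genes that in NGP did. For the others the interval reached beyond that band. Leaving out 1 library took the Kelly count to 420 (without Kelly DMSO replicate 2), 441 (Kelly STM2457 replicate 1) or 417 (Kelly STM2457 replicate 2), and without NGP DMSO replicate 2 the NGP count was 589 and that of opposite genes 10. Scaling to the ERCC spike-ins in place of TMM moved the median of all genes to -0.21 in Kelly, to 0 in NGP and to 0.21 for the line difference. The share of positive line differences was then 80.5% (393 of 488) against 39.6%, and that of higher genes in Kelly 8.97% (103 of 1148) against 61.8%. Directions in Kelly are therefore relative to the typical gene of that line. With ERCC scaling 106 of the 148 NGP-only genes kept the call of the line difference, and all 148 kept its sign. In Kelly 45 of the 148 were then called, and 51 changed sign. Of the 76 Kelly-only genes 47 kept the call of the line difference and 55 that in Kelly, and 2 were called in NGP. A call in 1 line only thus depends on the scaling for part of these genes.

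**Figure D1:**
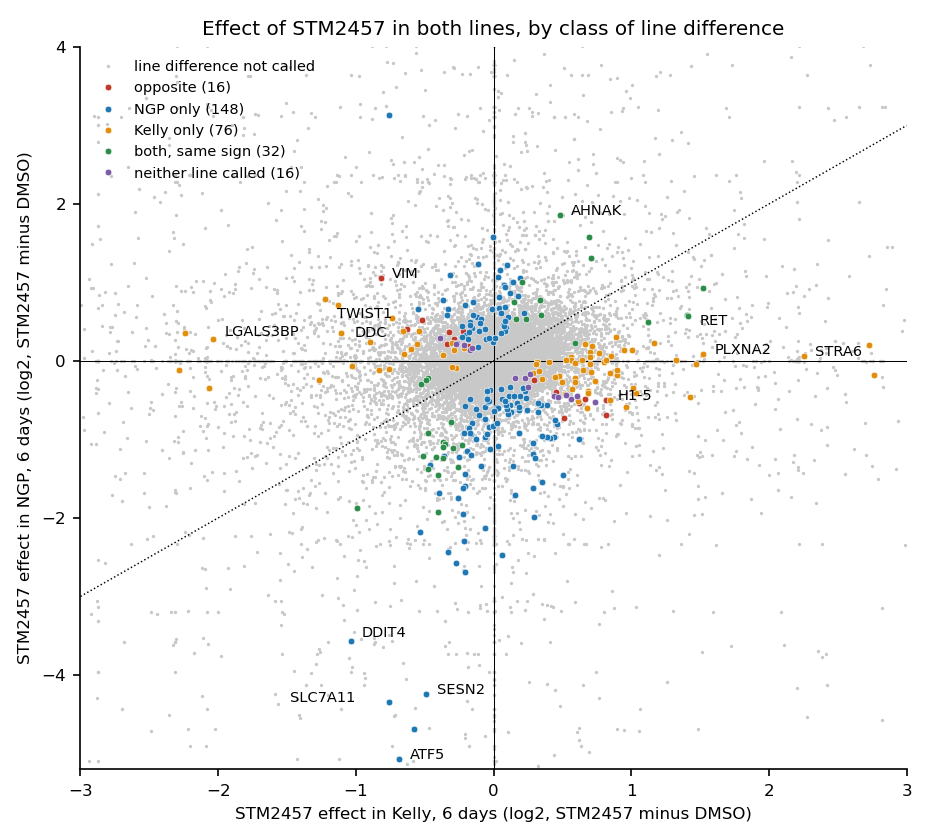
Each point is a gene, with its STM2457 effect at 6 days in Kelly on the x axis and in NGP on the y axis (both log2, STM2457 minus DMSO); colours give the class of called genes, grey points were not called for the line difference, and the dotted line marks equal effects. Genes outside the axes (2 called, at least 1733 not called) and the 15 genes under 1 CPM in a line are not drawn. ATF5, SESN2, SLC7A11 and DDIT4 lie far down with Kelly effects between -1.03 and -0.49, and VIM and H1-5 lie in the 2 quadrants of opposite signs.

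Of the 16 genes changed in opposite directions, 9 rose in NGP and fell in Kelly. With ERCC scaling all 16 kept the sign of both effects and the call of the line difference, but 7 of them kept a call in both lines, and the 28 opposite genes then split into 26 higher and 2 lower in NGP. The call in NGP was then lost for FTL, MT-CO3, RGS5 and GNAS, and that in Kelly for H1-2, H1-4, KCNG1 and AUTS2. Those that rose in NGP included VIM, an intermediate filament protein of mesenchymal cells, and TWIST1, a basic helix-loop-helix factor of mesenchymal development. VIM (chromosome 10, 17228241 to 17237593) was at 35.2 and 23.8 CPM in Kelly DMSO, 16.5 and 17.2 in Kelly STM2457, 58.9 and 66.4 in NGP DMSO and 129 and 133 in NGP STM2457. Both treated NGP libraries stood above their controls and both treated Kelly libraries below theirs, without overlap. The effect was 1.06 ± 0.17 in NGP and -0.82 ± 0.19 in Kelly, a line difference of 1.88 ± 0.25 (adjusted p = 2.06e-07). TWIST1 (chromosome 7, 19020991 to 19117636) was at 131 and 133 CPM in Kelly DMSO, 90.7 and 93.4 in Kelly STM2457, 202 and 182 in NGP DMSO and 273 and 281 in NGP STM2457. Its groups were likewise apart, with effects of 0.53 ± 0.11 in NGP and -0.52 ± 0.12 in Kelly. Of 19 tested genes of the mesenchymal neuroblastoma list, only VIM and TWIST1 were called for the line difference (1.75% of all genes were). SNAI2, FN1, CD44, YAP1 and the others were not. The list's median effect was 0.26 in NGP and -0.21 in Kelly. Its median line difference was 1.04 (0.024 over all genes), which is the value of TWIST1, and of the members above it only VIM was called. In value 14 of 19 members were positive, and 4 were at an unadjusted p under 0.05. The median line difference was 0.015 at 3 days, 0.37 after 3 h of actinomycin D and -0.40 after 6 h. The summed level of the fibroblast markers went from 149 to 150 CPM in Kelly DMSO to 127 to 146 in Kelly STM2457, and from 188 to 210 in NGP DMSO to 159 to 171 in NGP STM2457, lower in value in both lines. In bulk libraries fewer cells of a type and less RNA per cell cannot be told apart.

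Adrenergic genes were in the same group. DDC, the decarboxylase that makes dopamine, was at 565 and 568 CPM in Kelly DMSO, 351 and 381 in Kelly STM2457, 55.1 and 56 in NGP DMSO and 74.1 and 72.8 in NGP STM2457. Kelly had the higher level in every library, and the treatment brought the lines closer, with a line difference of 1.03 ± 0.11. HAND2 (chromosome 4, 173524969 to 173530229), a factor of sympathetic identity, was at 1239 and 1219 CPM in Kelly DMSO, 1058 and 1047 in Kelly STM2457, 896 and 968 in NGP DMSO and 1230 and 1193 in NGP STM2457. The order of the lines thus differed by treatment: Kelly was above NGP in DMSO and below it in STM2457. The line difference was 0.60 ± 0.077. TFAP2B, a neural crest factor, rose in NGP (0.58 ± 0.11) and had -0.34 ± 0.10 in Kelly, where it missed the threshold (adjusted p = 0.0501). With ERCC scaling its Kelly value of -0.57 was called. EYA1, named after its values were seen, fell in Kelly (-0.66 ± 0.13) from 423 and 433 to 270 and 274 CPM. Its value in NGP was 0.39 ± 0.14 and not called. Of 15 adrenergic factors, 5 were called for the line difference (1.75% of all genes were; limma-voom called 8): HAND2, TFAP2B and EYA1 were positive, and TBX2 was among the 2 negative ones. PHOX2A, GATA3, ISL1 and MYCN were not called. The list's median line difference was -0.16, against 0.024 over all genes, and 0.036 with ERCC scaling, where that over all genes was 0.21.

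Of 15 genes of catecholamine synthesis and storage, 3 had a positive called difference (DDC, DBH and CHGA; 0.692% of all genes did) and none a negative one. Limma-voom called 1 of the 15 and lost DBH and CHGA. DBH, which turns dopamine into noradrenaline, fell in Kelly from 1056 and 1074 to 863 and 790 CPM (-0.37 ± 0.074), while NGP had 108 and 134 CPM in DMSO and 139 and 116 in STM2457 (0.074 ± 0.077). The NGP groups overlapped. The DBH call was lost without NGP DMSO replicate 1 or NGP STM2457 replicate 1 (range over the 8 refits 0.30 to 0.60). CHGA, a secretory granule protein, rose in both lines, by 0.54 ± 0.044 in NGP and 0.16 ± 0.044 in Kelly. With ERCC scaling its Kelly value was -0.067. TH fell in Kelly (-0.56 ± 0.17, adjusted p = 0.0466).

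The other opposite genes that rose in NGP and fell in Kelly encode proteins of iron storage, respiration and G protein signalling. FTL, the ferritin light chain, was at 275 and 242 CPM in Kelly DMSO, 216 and 209 in Kelly STM2457, 231 and 230 in NGP DMSO and 286 and 272 in NGP STM2457. Its Kelly DMSO libraries differed from each other by more than those of any other group, and no groups of 1 line overlapped. MT-CO2, a mitochondrially encoded subunit of cytochrome c oxidase, was at 6778 and 7350 CPM in Kelly DMSO, 5440 and 5842 in Kelly STM2457, 3846 and 3491 in NGP DMSO and 4637 and 4834 in NGP STM2457. The effect was 0.37 ± 0.05 in NGP and -0.32 ± 0.05 in Kelly. MT-CO3, another subunit, had 0.21 ± 0.062 and -0.34 ± 0.062. RGS5, a regulator of G protein signalling, had 0.19 ± 0.053 and -0.18 ± 0.053, and GNAS, the stimulatory G protein alpha subunit, 0.16 ± 0.039 and -0.20 ± 0.039. These 3 complete the 9 genes. Of 13 mitochondrially encoded mRNAs, a list made after values had been seen, 5 had a positive called line difference (0.692% of all genes did) and none a negative one, with a median of 0.31. With ERCC scaling 10 were positive and 12 were lower in Kelly, against 6 lower in Kelly with TMM. The share of all fragments from mitochondrial genes went from 6.70 and 7.38% in Kelly DMSO to 5.97 and 6.04% in Kelly STM2457. In NGP it was 5.25 and 4.62% in DMSO and 5.21 and 5.49% in STM2457. That share is the summed count of these same mRNAs and so is no separate evidence. After 3 h and after 6 h of actinomycin D, 12 of the 13 had a positive called line difference (0.652% and 1.14% of all genes did).

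The other 7 opposite genes fell in NGP and rose in Kelly. KCNG1, a modifier subunit of potassium channels, was at 37.9 and 39.2 CPM in Kelly DMSO, 63.8 and 58.4 in Kelly STM2457, 225 and 248 in NGP DMSO and 173 and 165 in NGP STM2457. It had an effect of -0.48 ± 0.14 in NGP and 0.66 ± 0.15 in Kelly, with the groups of each line apart. AUTS2, a neurodevelopmental nuclear protein, had -0.40 ± 0.088 and 0.45 ± 0.089.

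A further 3 were linker histone genes, whose proteins bind DNA between nucleosomes. H1-5 (chromosome 6, 27866849 to 27867529) was at 661 and 637 CPM in Kelly DMSO, 1188 and 1103 in Kelly STM2457, 1369 and 1621 in NGP DMSO and 1058 and 1055 in NGP STM2457. H1-4 was at 474 and 442 CPM in Kelly DMSO, 673 and 634 in Kelly STM2457, 1210 and 1320 in NGP DMSO and 767 and 755 in NGP STM2457, and H1-2 at 386 and 356 CPM in Kelly DMSO, 592 and 553 in Kelly STM2457, 996 and 1116 in NGP DMSO and 703 and 752 in NGP STM2457. For all 3, NGP DMSO held the highest values and Kelly DMSO the lowest, and the treated libraries of both lines lay between them. The line differences were -1.32 ± 0.23, -1.25 ± 0.19 and -1.16 ± 0.19. Of 73 histone genes tested, picked by symbol after these had been seen, 18 had a negative called difference and none a positive one (1.06% of all genes were called negative), with a median of -0.82. In Kelly 18 rose and 1 fell (2.36% and 1.46% of all genes did), and in NGP 2 rose and 9 fell (2.87% and 2.24%). With ERCC scaling 13 were negative and 1 positive for the line difference, and 4 rose in Kelly. DESeq2 called 15 and limma-voom 39 of the 73 for the line difference. Histone mRNAs of the replication-dependent kind mostly lack a poly(A) tail and are near-identical between copies, so the poly(A) selection stated in the labels and the assignment of reads limit these values. No histone gene was called for the same contrast after 3 h of actinomycin D, where the median was 0 (edgeR, 5 at an unadjusted p under 0.05), or at 3 days (1 at an unadjusted p under 0.05). After 6 h of actinomycin D the direction was the other one. A positive line difference was then called for 7 of the 73 (1.14% of all genes were) and a negative one for none, with a median of 0.18.

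**Figure D2:**
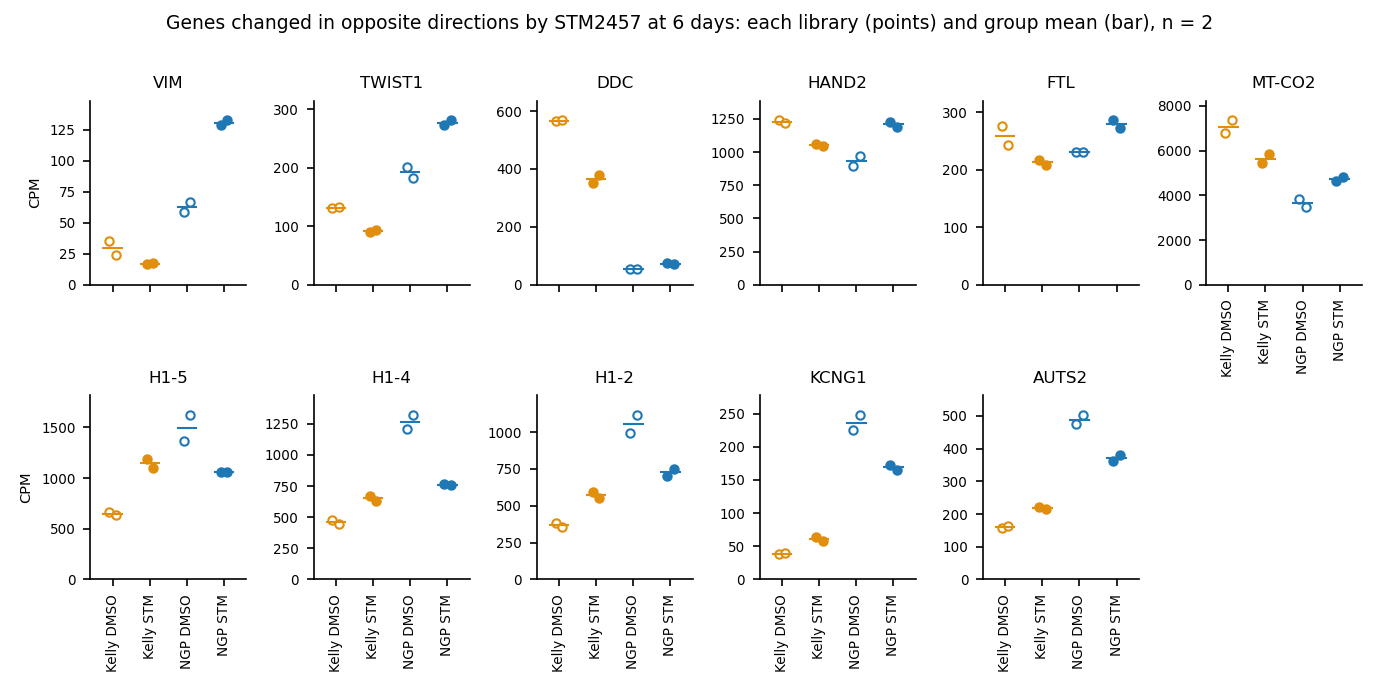
CPM on the y axis (linear, from 0) of 11 opposite genes, in the 4 groups on the x axis; open points are DMSO and filled points STM2457 libraries, orange Kelly and blue NGP, and bars are means (n = 2). In the upper row NGP rises and Kelly falls, and in the lower row NGP falls and Kelly rises.

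Of 34 tested genes of the amino acid response, 30 fell under STM2457 in NGP and 11 in Kelly (2.24% and 1.46% of all genes did). None rose in either line. A negative line difference was called for 22 (1.06% of all genes were), and a positive one for none. The median effect was -1.61 in NGP and -0.40 in Kelly, and the median line difference -1.26. With ERCC scaling 18 were called, with DESeq2 23 and with limma-voom 25. The list was chosen with earlier results of these data known, so its direction is not independent evidence.

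The start regions of these genes are shown because ATF4 and its partners bind a composite element there, with the core TGATGNAA in either direction. The window runs from 250 bases before to 50 after the start site in RefSeq (GRCh38.p14), printed in the direction of the gene with the matched letters in capitals. Of the 34 genes 29 had a window, and 5 of them (17.2%) held a match, against 1270 of 35116 (3.62%) over all windows of this length. For each list gene only the first window listed was searched, while the share over all windows counts every window. A list gene without a match here may hold one at another start site. The share was 3 of 18 where the line difference was called and 2 of 11 where it was not. No other motif was searched. The 3 called genes with a match were ASNS, which makes asparagine, SLC3A2, the heavy chain of the amino acid exchangers, and AARS1, which charges tRNA with alanine.
ASNS (chr7:97872359-97872658, minus strand): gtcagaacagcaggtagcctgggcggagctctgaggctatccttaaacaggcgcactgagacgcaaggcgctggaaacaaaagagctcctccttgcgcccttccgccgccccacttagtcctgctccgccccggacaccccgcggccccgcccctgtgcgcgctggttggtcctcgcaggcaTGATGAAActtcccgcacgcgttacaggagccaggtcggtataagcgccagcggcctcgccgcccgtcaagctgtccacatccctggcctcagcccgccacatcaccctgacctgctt
SLC3A2 (chr11:62881449-62881748, plus strand): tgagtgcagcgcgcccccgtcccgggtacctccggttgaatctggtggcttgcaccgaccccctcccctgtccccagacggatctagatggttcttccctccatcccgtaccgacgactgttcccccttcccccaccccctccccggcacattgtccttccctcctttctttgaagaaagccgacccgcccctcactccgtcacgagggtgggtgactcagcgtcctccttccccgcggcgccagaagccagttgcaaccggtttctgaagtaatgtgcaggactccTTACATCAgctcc
AARS1 (chr16:70289457-70289756, minus strand): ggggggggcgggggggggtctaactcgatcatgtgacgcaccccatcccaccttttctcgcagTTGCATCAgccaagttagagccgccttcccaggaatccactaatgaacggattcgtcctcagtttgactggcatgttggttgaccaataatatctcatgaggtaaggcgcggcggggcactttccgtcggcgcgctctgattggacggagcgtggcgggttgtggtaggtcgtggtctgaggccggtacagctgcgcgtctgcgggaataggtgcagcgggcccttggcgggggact
The match in ASNS begins 68 bases before the start site, that in AARS1 187 bases before, and that in SLC3A2 37 bases after. The latter 2 are on the opposite strand of the gene. A match describes letters only and does not show a bound site.

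ASNS was at 153 and 148 CPM in Kelly DMSO, 77.3 and 74.4 in Kelly STM2457, 289 and 270 in NGP DMSO and 79.7 and 72.2 in NGP STM2457. It fell in both lines, but from a higher control level in NGP to the same treated level, with effects of -1.88 ± 0.11 and -0.99 ± 0.11. AARS1 had -1.46 ± 0.089 in NGP and -0.41 ± 0.088 in Kelly, and SLC3A2 -1.62 ± 0.17 and -0.23 ± 0.16, the latter not called. These 3 and ATF4, PSAT1, GPT2, CHAC1, TRIB3 and ATF3 below were named after their values were seen.

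Among the regulators, ATF5, a factor of the ATF4 family, was at 7.38 and 5.4 CPM in Kelly DMSO, 4.56 and 3.39 in Kelly STM2457, 148 and 195 in NGP DMSO and 6.77 and 3.36 in NGP STM2457. Both NGP DMSO libraries stood more than an order of magnitude above the 6 others. Its effect was -5.07 ± 0.41 in NGP and -0.69 ± 0.38 in Kelly, a line difference of -4.38 ± 0.54 (adjusted p = 1.23e-08). NUP62 shares 19.5% of the exon bases of ATF5, so its level is uncertain. ATF4 itself was at 391 and 353 CPM in Kelly DMSO, 305 and 302 in Kelly STM2457, 493 and 525 in NGP DMSO and 241 and 231 in NGP STM2457, with effects of -1.11 ± 0.087 and -0.29 ± 0.085. CHAC1 (a glutathione-degrading enzyme), TRIB3 (a pseudokinase) and ATF3 (a stress factor) fell in NGP by 5.09, 3.00 and 2.83, and their line differences of -4.51 ± 1.44, -3.06 ± 0.98 and -2.11 ± 0.79 were not called. None of the 3 was called in Kelly.

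SESN2 and DDIT4, stress-induced inhibitors of the growth regulator mTORC1, showed the same form. SESN2 (chromosome 1, 28259518 to 28282491) was at 26.9 and 31.2 CPM in Kelly DMSO, 20.9 and 20.4 in Kelly STM2457, 72.4 and 78.1 in NGP DMSO and 3.82 and 4.15 in NGP STM2457. DDIT4 was at 55.2 and 42.6 CPM in Kelly DMSO, 25.8 and 21.9 in Kelly STM2457, 210 and 225 in NGP DMSO and 19.7 and 16.9 in NGP STM2457. For both, the NGP DMSO libraries were the highest of the 8 and the NGP STM2457 libraries the lowest, with Kelly between and its groups apart as well. The effects in NGP were -4.24 ± 0.50 and -3.57 ± 0.37. In Kelly they were -0.49 ± 0.43 and -1.03 ± 0.34, neither called, and the intervals leave room for a fall in DDIT4 (adjusted p = 0.0795). With ERCC scaling DDIT4 was called lower in Kelly as well (-1.26), and SESN2 was not (-0.72).

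Transporters and enzymes followed. SLC7A11, the cystine importer, was at 24.2 and 31.7 CPM in Kelly DMSO, 18.1 and 14.9 in Kelly STM2457, 86 and 70.1 in NGP DMSO and 4.11 and 3.56 in NGP STM2457, an effect of -4.34 ± 0.29 in NGP and -0.76 ± 0.25 in Kelly. Both treated Kelly libraries were below their controls, yet the Kelly effect was not called (adjusted p = 0.0871). With ERCC scaling it was called (-0.99). SLC7A5, the importer of large neutral amino acids, fell in both lines, from 453 and 482 to 131 and 115 CPM in NGP (-1.93 ± 0.11) and from 218 and 192 to 157 and 154 in Kelly (-0.40 ± 0.11). PSAT1, of serine synthesis, was at 65.9 and 58.7 CPM in Kelly DMSO, 53.7 and 54.2 in Kelly STM2457, 323 and 294 in NGP DMSO and 103 and 102 in NGP STM2457. It fell by 1.59 in NGP, and the Kelly groups, though apart, differed by -0.21 ± 0.12, not called. With ERCC scaling the Kelly effect of PSAT1 was called (-0.44). GPT2, a mitochondrial alanine aminotransferase, had -2.13 ± 0.16 in NGP and -0.06 ± 0.16 in Kelly. GARS1, which charges tRNA with glycine, fell in both lines, by 1.35 ± 0.074 in NGP and 0.26 ± 0.073 in Kelly. Of 20 cytosolic tRNA synthetases, 9 had a negative called difference (1.06% of all genes did) and none a positive one, with a median of -0.45. This list was made after values had been seen and shares 4 genes with the amino acid list. With ERCC scaling 6 were negative and 1 positive. A pair of members of the amino acid list went against the pattern in value: ALDH1L2 fell alike in both lines (line difference 0.044 ± 0.24), and CBS, of cysteine synthesis, was called lower in Kelly only, with a line difference of 0.22 ± 0.25.

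CDKN1A, PMAIP1 and PLXNA1 were also called lower in NGP only on the TMM scale. With ERCC scaling PLXNA1 (-0.39) and, barely, CDKN1A (-0.76, edgeR adjusted p = 0.04998) were called lower in Kelly too. CDKN1A, the cell cycle inhibitor p21, was at 82.8 and 67.2 CPM in Kelly DMSO, 54.2 and 49.4 in Kelly STM2457, 46.3 and 47.4 in NGP DMSO and 8.68 and 12.1 in NGP STM2457. Its Kelly groups were also apart, with -0.53 ± 0.25 (not called) against -2.17 ± 0.27 in NGP. PMAIP1, a pro-apoptotic BH3 protein, had -1.18 ± 0.22 in NGP and 0.29 ± 0.21 in Kelly. Its call was lost without NGP STM2457 replicate 1 (range over refits -1.85 to -1.16). CDKN1A and PMAIP1 were the 2 of 26 p53 target genes called for the line difference (1.75% of all genes were). The list's median line difference was -0.23. PLXNA1, a semaphorin receptor of axon guidance, fell in NGP from 464 and 536 to 255 and 269 CPM (-0.93 ± 0.078).

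Several protein chaperones rose under STM2457 in NGP. HSPA5, the main chaperone of the endoplasmic reticulum, was at 407 and 420 CPM in Kelly DMSO, 386 and 360 in Kelly STM2457, 161 and 155 in NGP DMSO and 264 and 267 in NGP STM2457. The NGP groups were apart and the Kelly groups too, in the other direction, though Kelly was not called (-0.15 ± 0.076, against 0.75 ± 0.077 in NGP). CALR, a calcium-binding chaperone, had 0.56 ± 0.063 and -0.12 ± 0.063, and HSP90B1 0.49 ± 0.058 and -0.10 ± 0.058. C12orf73 shares 11.6% of the exon bases of HSP90B1, so that value is uncertain. With ERCC scaling HSPA5, CALR and HSP90B1 were called lower in Kelly (-0.38, -0.35 and -0.33) and stayed called higher in NGP. Of 16 chaperones and folding genes of the endoplasmic reticulum, 5 had a positive called line difference (0.692% of all genes did) and 2, HERPUD1 and XBP1, a negative one. With ERCC scaling 7 of the 16 were positive and 2 negative, and 4 were lower in Kelly, against 1 lower in Kelly with TMM. HERPUD1, an adaptor of protein degradation, fell in NGP by 2.30, from 206 and 193 to 40.7 and 40.2 CPM, and had -0.22 ± 0.22 in Kelly. In the cytosol HSPA1B, an inducible heat shock protein, was at 33.9 and 37.9 CPM in Kelly DMSO, 35.7 and 35.9 in Kelly STM2457, 16 and 13 in NGP DMSO and 37.7 and 49.6 in NGP STM2457. Its effect was 1.58 ± 0.21 in NGP and -0.0011 ± 0.20 in Kelly. HSPA1A is a near-identical copy, so reads may be split between them. HSPA8 and HSP90AA1 rose in both lines, by 1.01 and 0.75 in NGP and 0.21 and 0.15 in Kelly. With ERCC scaling the Kelly values were -0.024 and -0.085. Of 16 cytosolic chaperones, listed after values had been seen, 6 had a positive called line difference and 1 a negative one (0.692% and 1.06% of all genes did).

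Genes of mitosis were higher under STM2457 than in DMSO in both lines on the TMM scale, more of them in NGP. Of 25 genes of G2 and mitosis, 20 rose in NGP and 9 in Kelly (2.87% and 2.36% of all genes did), and 4 had a positive called difference (0.692% of all genes did) and none a negative one. With ERCC scaling 20 rose in NGP, 1 in Kelly, and 13 were called. From 3 to 6 days 23 of the 25 fell in NGP DMSO and 13 in Kelly DMSO (4.45% and 5.03% of all genes did). In STM2457 2 fell in NGP and 1 in Kelly (1.34% and 1.49% of all genes did). At 3 days 1 of the 25 was higher under STM2457 in NGP and 0 in Kelly (0.709% and 0.617% of all genes were). HMMR, a spindle protein, was at 33.7 and 39.4 CPM in Kelly DMSO, 38.5 and 36.3 in Kelly STM2457, 57.1 and 47.1 in NGP DMSO and 118 and 101 in NGP STM2457. KIF20A, a kinesin of cytokinesis, had 0.87 ± 0.11 in NGP and 0.12 ± 0.11 in Kelly, and CCNB2, a mitotic cyclin, 1.00 ± 0.14 and 0.13 ± 0.14. The CCNB2 call was lost without Kelly STM2457 replicate 1 or NGP STM2457 replicate 2 (range 0.71 to 1.05). DEPDC1, a mitotic gene outside that list, was at 41.6 and 52.6 CPM in Kelly DMSO, 37.4 and 49.5 in Kelly STM2457, 13.7 and 15.2 in NGP DMSO and 32.3 and 35.4 in NGP STM2457, and its Kelly groups overlapped. Of 25 DNA replication genes 16 rose in Kelly and 9 in NGP, against 2.36% and 2.87% of all genes (7 and 8 members with ERCC scaling). From 3 to 6 days 20 of these 25 fell in Kelly DMSO and 16 in NGP DMSO, against 4 and 3 in STM2457. A called line difference was found for 1 of the 25 (1.75% of all genes, and no member with ERCC scaling): CDC6, a loader of the replicative helicase. CDC6 was at 49.2 and 58.7 CPM in Kelly DMSO, 87.1 and 108 in Kelly STM2457, 69.9 and 66.9 in NGP DMSO and 80 and 62.9 in NGP STM2457. Its call was lost in 4 of 8 refits that left out 1 library (range -0.98 to -0.63) and with ERCC scaling. The replication list had a median line difference of -0.28.

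Other genes higher in NGP only were SYNM, RERG, ZNF253, GAP43 and LDHA. SYNM, an intermediate filament protein that binds vimentin, was at 59.9 and 62.5 CPM in Kelly DMSO, 53.6 and 44.5 in Kelly STM2457, 19 and 21.7 in NGP DMSO and 35.7 and 51.1 in NGP STM2457. RERG, a Ras-related growth inhibitor, had 0.66 ± 0.19 in NGP and -0.55 ± 0.18 in Kelly, and its call was lost without Kelly STM2457 replicate 1 (range 1.02 to 1.41). The call of ZNF253, a zinc finger gene with near copies on its chromosome, was lost in 5 of 8 such refits (range 0.83 to 1.55). Of 22 cholesterol synthesis genes 10 rose in NGP and 6 in Kelly (2.87% and 2.36% of all genes did). For the line difference 1 of them was called (1.75% of all genes were), against 3 with ERCC scaling. GAP43, a growth cone protein, was lost in 4 of 8 refits (range 0.39 to 0.80), with limma-voom and in the fit on the 8 libraries. LDHA, lactate dehydrogenase, rose in NGP (0.36 ± 0.074) and had -0.18 ± 0.074 in Kelly, with no refit that lost the call. With ERCC scaling RERG, GAP43 and LDHA were also called lower in Kelly (-0.78, -0.39 and -0.41), while SYNM and ZNF253 were not called there.

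Higher in Kelly only were STRA6, PLXNA2, PRICKLE1 and DCX, among others. STRA6, the retinol uptake receptor, was at 9.53 and 13.4 CPM in Kelly DMSO, 53.4 and 55.2 in Kelly STM2457, 37 and 37.4 in NGP DMSO and 40.9 and 36.5 in NGP STM2457. The treated Kelly libraries were about at the level of all 4 NGP libraries or above, and the Kelly DMSO libraries lay far below. The effect was 2.25 ± 0.16 in Kelly and 0.058 ± 0.15 in NGP, a line difference of -2.20 ± 0.22 (adjusted p = 1.01e-11). PLXNA2, a plexin receptor for semaphorins, was at 40.5 and 40.9 CPM in Kelly DMSO, 118 and 116 in Kelly STM2457, 33.6 and 41.9 in NGP DMSO and 47 and 32.9 in NGP STM2457. The NGP groups overlapped, and the line difference was -1.44 ± 0.25. PRICKLE1, of planar cell polarity, rose in Kelly from 15.9 and 15.5 to 41.5 and 45.7 CPM (1.47 ± 0.20) and had -0.041 ± 0.19 in NGP. DCX, a microtubule protein of young neurons, rose from 43.5 and 40.7 to 70.1 and 73 CPM, and NGP held 233 and 229 in DMSO and 237 and 256 in STM2457. Its line difference of -0.67 ± 0.16 was lost with ERCC scaling and with limma-voom.

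ETV1, an ETS factor, was at 13.6 and 8.39 CPM in Kelly DMSO, 21.3 and 21.9 in Kelly STM2457, 46 and 47.3 in NGP DMSO and 30.3 and 31.6 in NGP STM2457, higher in Kelly and lower in value in NGP. It was lost without Kelly DMSO replicate 2 (range -1.96 to -1.26). ADAM12, a metalloprotease, and H2AC13, a histone, were also in this group. ADAM12 was lost in 4 of 8 refits (range -2.52 to -1.47), and H2AC13 under 4 of 11 other alternatives. TBX2, a factor of the adrenergic list named after its values were seen, rose in Kelly (0.89 ± 0.12) and had 0.30 ± 0.12 in NGP, and its line difference lost its call with ERCC scaling (-0.39, edgeR adjusted p = 0.242). Of 28 axon guidance genes, 5 were called for the line difference (1.75% of all genes were): SLIT3 and SLIT2 positive, PLXNA1, PLXNA2 and PLXNA4 negative.

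Lower in Kelly only were LGALS3BP, FHAD1, SLC2A1, SLIT2 and DNAJB4. LGALS3BP, a secreted galectin-binding glycoprotein, was at 23.2 and 20.6 CPM in Kelly DMSO, 6.84 and 3.85 in Kelly STM2457, 109 and 124 in NGP DMSO and 139 and 143 in NGP STM2457. The Kelly groups were far apart, with -2.04 ± 0.20, and NGP had 0.27 ± 0.17, its groups apart in the other direction but not called. FHAD1, a forkhead-associated domain gene, was at 10.8 and 12.6 CPM in Kelly DMSO, 2.28 and 2.49 in Kelly STM2457, 142 and 147 in NGP DMSO and 133 and 135 in NGP STM2457. NGP held more than any Kelly library, and the line difference was 2.17 ± 0.35. SLC2A1, the glucose transporter GLUT1, was at 109 and 111 CPM in Kelly DMSO, 61 and 56.8 in Kelly STM2457, 24.9 and 28.9 in NGP DMSO and 31.3 and 32.3 in NGP STM2457. Both treated Kelly libraries were lower (-0.90 ± 0.17), and the NGP libraries moved the other way in value (0.24 ± 0.18). SLIT2, a repellent ligand of axon guidance, had -0.74 ± 0.20 in Kelly and 0.55 ± 0.20 in NGP. DNAJB4, a cochaperone, was lost in 4 of 8 refits (range 1.64 to 2.08).

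Some genes moved the same way in both lines but by different amounts. Of the 32, 9 rose and 15 fell more in NGP, and 5 rose and 3 fell more in Kelly. AHNAK, a giant scaffold protein, was at 76.6 and 72.2 CPM in Kelly DMSO, 96.6 and 111 in Kelly STM2457, 12.1 and 10.2 in NGP DMSO and 39.6 and 41.9 in NGP STM2457. ALK, the receptor kinase altered in neuroblastoma, was at 89.8 and 76 CPM in Kelly DMSO, 140 and 129 in Kelly STM2457, 34.3 and 39.9 in NGP DMSO and 108 and 114 in NGP STM2457. Both rose in each line, by 1.86 and 1.58 in NGP and 0.48 and 0.69 in Kelly. SLIT3 rose by 1.31 and 0.71. RET, the receptor kinase for GDNF-family ligands, rose more in Kelly: it was at 35.4 and 50.3 CPM in Kelly DMSO, 120 and 108 in Kelly STM2457, 30.9 and 21.4 in NGP DMSO and 38 and 40.3 in NGP STM2457. Its line difference of -0.84 ± 0.19 was lost without Kelly DMSO replicate 1 or NGP DMSO replicate 1 (range -1.10 to -0.54). The RET call was also lost with ERCC scaling, with limma-voom and in the fit on the 8 libraries. ARHGEF28, a guanine nucleotide exchange factor, rose by 1.41 ± 0.15 in Kelly and 0.58 ± 0.15 in NGP, and was lost without Kelly DMSO replicate 1 (range -0.90 to -0.75) and with ERCC scaling. RPL19, a ribosomal protein with many pseudogenes, fell more in Kelly, by 0.48 against 0.22, and was lost in 4 of 8 refits (range 0.24 to 0.29).

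The 15 genes under 1 CPM in a line rest on groups with few or no counts, and their fitted differences are no bounds. ITGA6, a laminin receptor subunit at 42.5 to 58.6 CPM in Kelly, had 0 counts in both NGP DMSO libraries and 4 and 11 in NGP STM2457, which is at least 5.17-fold higher over the group against a floor of 3 counts. LRRC39 had 20 and 26 counts in NGP STM2457 and 0 in DMSO (at least 15.8-fold), and TRMT13 shares 27.3% of its exon bases. In Kelly, RBFOX3, a neuronal splicing factor, went from 11 and 9 counts in DMSO to 0, at least 6.46-fold lower, while NGP held 29.7 to 46.9 CPM. KRT17 went from 31 and 13 counts to 0 and GALNT17 from 20 and 2 to 0 (at least 14.2- and 7.11-fold lower). SP6 had 8 and 0 counts in NGP STM2457 and 0 in DMSO. Each of these 6 calls was lost in 2 to 6 of the refits without 1 library.

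Several gene groups showed few or no line differences. Among 20 genes of the m6A machinery 3 rose in each line (2.36% of all genes did in Kelly and 2.87% in NGP). With ERCC scaling 1 fell and none rose in Kelly. None of the 20 was called for the line difference, with a median of 0.048 (edgeR, with 4 at an unadjusted p under 0.05, and 0 called by DESeq2 or limma-voom). Among 24 interferon response genes none was called in either line or for the difference by edgeR, DESeq2 or limma-voom, with 1 at an unadjusted p under 0.05 for the difference and 0 in either line. Among 25 ribosomal protein genes 19 fell in Kelly and 17 in NGP (1.46% and 2.24% of all genes did). Of their line differences 1 was called (1.75% of all genes were), against 12 with ERCC scaling, all positive. Extracellular matrix and integrin genes had 2 called of 29 (ITGA6 positive, ITGA9 negative), against 1.75% of all genes. The ITGA9 call was lost in each of the 8 refits without 1 library (range -1.12 to -0.98). A gene that was not called may still differ: in simulated counts with this design, 44% of 2-fold and 74% of 4-fold line differences were recovered (16582 genes), with 5 of 123 calls false.

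**Figure D3:**
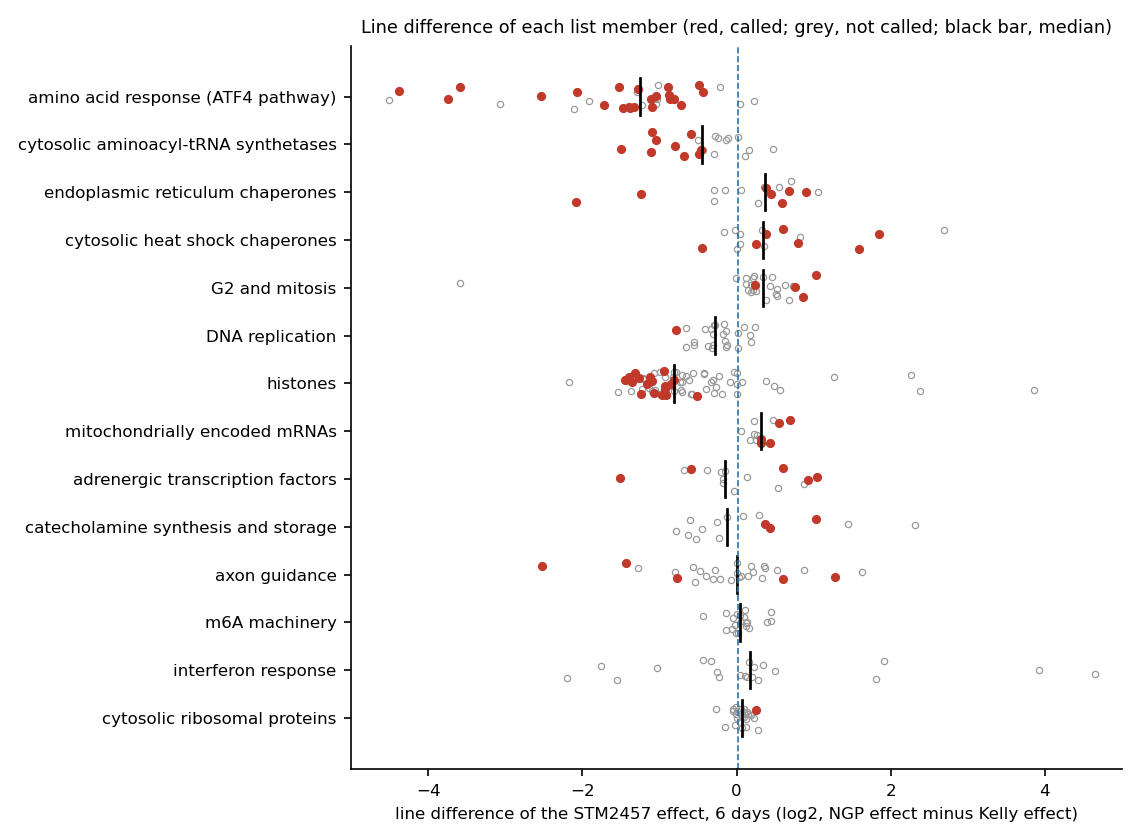
Each point is a member of the list named on the y axis, at its line difference at 6 days on the x axis (log2, NGP effect minus Kelly effect); red points were called, grey were not, black bars are list medians and the dashed line is the median of all genes (0.024). Vertical position within a row has no meaning, and 3 members beyond 5 either way are not drawn. The amino acid response and histone rows lie mostly to the left.

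The same contrast at 3 days used 8 other libraries. It called 28 genes (0.161%), and 12 of the 303 genes were called at both durations with the same sign and 2 with the other sign. The sign was shared for 195 of 303 (64.4%), against 51.6% of all genes. It was shared by 15 of the 16 opposite genes, of which VIM, DDC, MT-CO2 and GNAS were called at 3 days. VIM was then at 14.6 and 14.5 CPM in Kelly DMSO, 9.7 and 11.7 in Kelly STM2457, 61.9 and 60.5 in NGP DMSO and 93.3 and 119 in NGP STM2457, a line difference of 1.24 ± 0.27. DDC had 0.90 ± 0.11, TFAP2B 0.81 ± 0.15, DBH 0.69 ± 0.11 and CHGA 0.31 ± 0.062, all called. For NGP-only genes the sign was shared by 80 of 148 (54.1%), and the median absolute line difference was 0.15 at 3 days against 0.81 at 6. No gene of the amino acid response was called for the line difference at 3 days (edgeR, 6 of 34 at an unadjusted p under 0.05), and their median was 0.14.

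**Figure D4:**
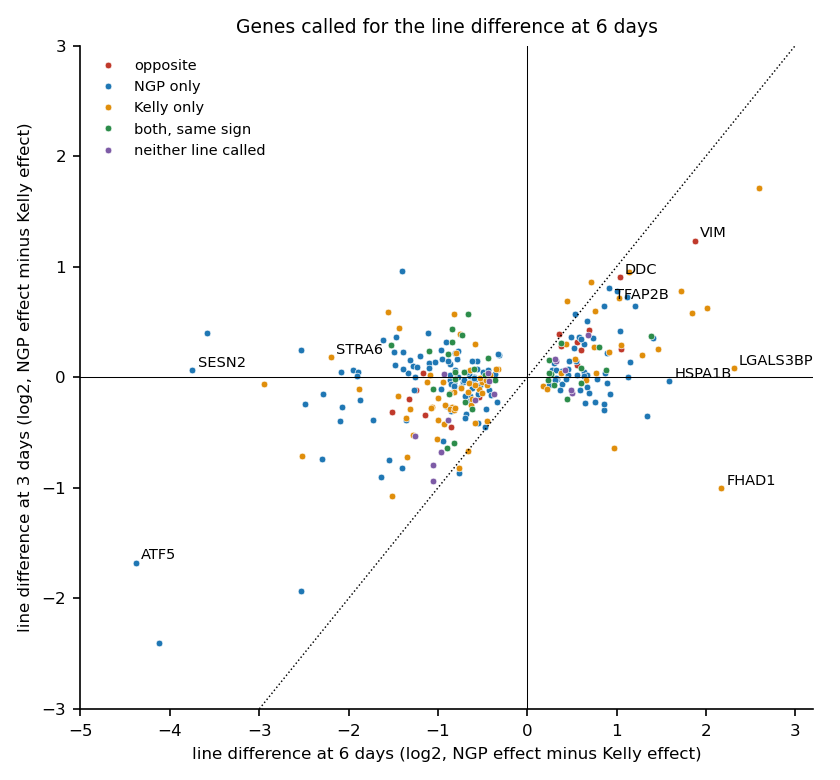
Line difference at 6 days (x axis) and at 3 days (y axis), both log2, NGP effect minus Kelly effect, for the 288 called genes that reach 1 CPM in both lines, coloured by class, with 3 outside the axes; the dotted line marks equal values. DDC and TFAP2B lie near the dotted line, VIM lies above 1 on both axes, and SESN2, STRA6, LGALS3BP and HSPA1B lie near 0 on the y axis.

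The levels at both durations show in which libraries the 6-day values stood apart. ATF5 was at 4.59 and 4.23 CPM in Kelly DMSO, 5.42 and 4.19 in Kelly STM2457, 16.6 and 15.7 in NGP DMSO and 7.41 and 3.52 in NGP STM2457 at 3 days, and NGP DMSO moved from there to 148 and 195 CPM at 6 days. SLC7A11 in NGP was at 8.59 and 7.72 CPM in DMSO and 6.59 and 4.56 in STM2457 at 3 days, and SESN2 at 6.01 and 4.26 CPM in DMSO and 4.02 and 4.95 in STM2457. Among the 34 amino acid response genes, 31 rose from 3 to 6 days in NGP DMSO and none fell (3.56% of all genes rose), while in NGP STM2457 none rose and 1 fell (1.34% of all genes fell). In Kelly DMSO 4 rose (2.78% of all genes did). HSPA5 in NGP DMSO went from 310 and 296 to 161 and 155 CPM and in NGP STM2457 from 244 and 237 to 264 and 267. STRA6 in Kelly DMSO went from 82.5 and 82.7 to 9.53 and 13.4 CPM and in Kelly STM2457 from 93.2 and 95.3 to 53.4 and 55.2. LGALS3BP in Kelly DMSO went from 4.29 and 3.62 to 23.2 and 20.6, and in Kelly STM2457 from 4.28 and 3.4 to 6.84 and 3.85. For these genes the control libraries of the line had the larger change over time.

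Counted over the NGP-only genes, the change from 3 to 6 days in NGP was larger in DMSO than in STM2457 for 131 of 148 (88.5%), against 50.4% of all genes. It was called for 120 of them in DMSO and 26 in STM2457 (8.01% and 3.39% of all genes). Over the Kelly-only genes it was larger in Kelly DMSO for 64 of 76 (84.2%), against 54.9% of all genes, and called for 53 and 21 (7.81% and 2.6% of all genes). These changes share the 6-day libraries with the contrast that chose the genes, so the counts are a description and not a second line of evidence. The labels give no cell density, medium change or date, and what moved the controls was not tested. Duration and any other difference between the 3-day and 6-day cultures cannot be told apart.

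**Figure D5:**
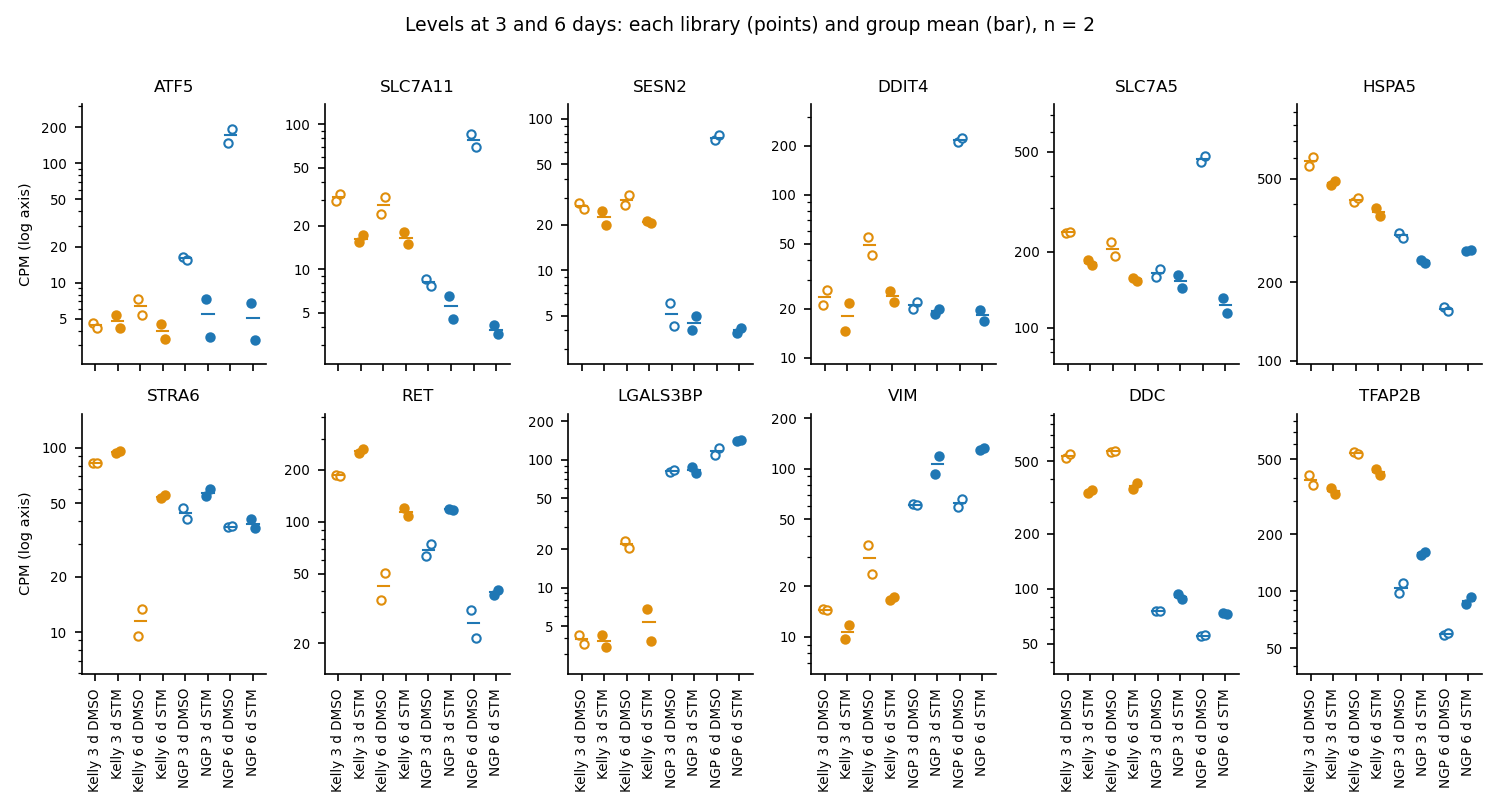
CPM on a log y axis of 12 genes at 3 and 6 days (x axis) in both lines; open points are DMSO and filled points STM2457 libraries, orange Kelly and blue NGP, bars are means (n = 2). In the upper row the NGP DMSO libraries at 6 days stand apart; for STRA6, RET and LGALS3BP it is Kelly DMSO at 6 days that stands away from Kelly DMSO at 3 days; VIM, DDC and TFAP2B show the treatment step in NGP at both durations.

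The contrast was also taken in the 8 libraries at 6 days after 3 h of actinomycin D and in the 8 after 6 h, where decay adds to the levels. After 3 h, 299 genes were called (1.72%). The sign was shared for 281 of the 303 (92.7%), against 56.3% of all genes, and 144 were called with the same sign. The amino acid response had 19 called negative (1.07% of all genes were) and 1 positive (0.652%). The positive one was ATF4, whose line difference went from -0.81 ± 0.12 at 0 h to 1.07 ± 0.12 after 3 h and 0.58 ± 0.12 after 6 h, and it was the only 1 of the 303 called with the other sign after 3 h. After 6 h, 413 genes were called (2.38%), the sign was shared for 204 (67.3%, against 52.3% of all genes), and 60 were called with the same sign and 22 with the other. The amino acid response then had 5 positive (1.14% of all genes were) and 1 negative (1.25%). VIM, DDC, HAND2, TWIST1, MT-CO2 and TFAP2B were among the genes called with the same sign at all 3 times at 6 days, as were AUTS2, SESN2, CDKN1A, LGALS3BP, SLC2A1, STRA6 and RET.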

How the data were processed

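RNA-seq libraries of Kelly and NGP cells were counted per gene. Per the file headers, the authors deposited fragment counts from featureCounts 1.5.3 over exons by gene name, with GENCODE protein-coding genes and ERCC spike-ins on GRCh38, and no strand option is recorded. Per the submitters' processing notes, HISAT2 2.1.0 and Subread 1.5.3 were used, beside Trimmomatic 0.36 and FastQC 0.11.5. Counts were used as deposited, with no normalization by the authors. The 48 libraries (24 groups of 2) were fitted together with edgeR 4.0.16 in R 4.3.3: TMM scaling, filterByExpr (minimum count 10, total 15), quasi-likelihood F-tests and Benjamini-Hochberg adjustment over 17343 genes at 0.05. An SE is the effect divided by the square root of F. Genes named by rule were called for the line difference with at least 5 CPM on average in each line: the 6 opposite genes of each direction with the largest smaller effect, 5 of each direction called in NGP only or in Kelly only, and 2 of each direction for either line among those with the same sign. The rule also took up to 3 members of each list, METTL3, MYCN, and 2 of each direction for each line among genes under 1 CPM in a line. Results of some genes are not reported here. All other genes were named after their values were seen. The members and lists were chosen with earlier results of these data known. The lists of tRNA synthetases, mitochondrial mRNAs, cytosolic chaperones and histones, and the comparisons of 6 with 3 days, were added after values had been seen. Fitted calls were tested on simulated data. Alternatives were ERCC, median-ratio and library-size scaling, other filters and dispersion settings, DESeq2 1.42.0, limma-voom (limma 3.58.1), fits on 8 or 16 libraries, a replicate block and leaving out each library. For genes at 0 counts in a group, folds are bounds against 3 counts over the group, which cover counting error only. Depth was 13807701 to 19291613 fragments.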

Additional observations from a re-analysis of the deposited data

Results flagged for a closer look

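Values below are shown because the effect of STM2457 differed between the lines, or because the line difference itself differed between 6 and 3 days, by a test of that difference in the edgeR fit. The first holds for the 303 genes of the report. The second compares libraries that share the 6-day values with the report, and 87 genes were called (0.502%), 23 positive and 64 negative. Of the genes named by rule, the line difference at 6 days minus that at 3 days (log2) was negative for SLC7A11 (-3.99), SESN2 (-3.81), DDIT4 (-2.78), SLC7A5 (-1.81) and GARS1 (-1.33) of the amino acid response. It was also negative for STRA6 (-2.38), ETV1 (-2.15), PLXNA2 (-1.88), PMAIP1 (-1.83), H1-2 (-1.20), RET (-1.15), H1-4 (-1.13) and PLXNA1 (-1.01). It was positive for the chaperones HSPA1B (1.62), HSPA5 (0.95), CALR (0.83) and HSP90B1 (0.70). It was also positive for FHAD1 (3.18), LGALS3BP (2.23), DEPDC1 (1.69), KIF20A (0.98) and SLIT3 (0.65).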

How the results depend on the processing

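The count of 303 line differences was 488 with ERCC scaling (215 shared), 459 with DESeq2 (283 shared) and 557 in a fit on the 16 libraries at 0 h (301 shared), and it stayed within 1.5 times of 303 under the other alternatives. The 662 Kelly calls were 1148 with ERCC scaling. The 16 opposite genes were 28 with ERCC scaling (7 shared, 26 higher and 2 lower in NGP) and 34 with limma-voom (12 shared, 7 higher and 27 lower in NGP). They were 30 with no filter on low counts, 50 in a fit on the 8 libraries and 55 in that on the 16, each with all 16 shared. Leaving out each library gave 242 to 313 line differences, 417 to 725 Kelly calls, 589 to 969 NGP calls and 10 to 23 opposite genes. With 2 libraries a group, a refit without one assumes that the lone library varies like the other groups.

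Over 17343 genes the deviations of same-numbered DMSO and STM2457 libraries correlated at -0.0073 in Kelly and 0.018 in NGP. Genes of low count weigh as much as others in this value, so it cannot exclude that replicate numbers pair the libraries. With the number as a replicate block the fit called 434 line differences, 751 Kelly genes, 1016 NGP genes and 28 opposite genes, among them all 16. DESeq2 called 22 opposite genes, with 11 of the 16 among them.

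Of 67 called genes named by rule, 42 kept their call in all 8 refits without a library and all 11 other alternatives, 22 lost it in at least 1 refit, 17 under at least 1 other alternative, and none changed sign. For MYCN, no filter and the replicate block also gave a call, at -0.20 and -0.19. At this depth and with 2 libraries a group, small differences in genes of low count could not be resolved.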

Other observations

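Genes in this section were chosen after their values were seen. Of the 303 genes, those called for the line difference at both durations included ZNF704, a zinc finger gene, at 1048 and 1071 CPM in Kelly DMSO, 1113 and 1127 in Kelly STM2457, 102 and 107 in NGP DMSO and 200 and 202 in NGP STM2457. Its line difference was 0.86 ± 0.086 at 6 days and 0.64 ± 0.086 at 3 days. AKAP12, a scaffold for protein kinase A, rose in Kelly (0.70 ± 0.064) and had 0.11 ± 0.064 in NGP, with line differences of -0.59 ± 0.091 and -0.41 ± 0.091. RGS4, a regulator of G protein signalling, had 0.53 ± 0.13 and 0.57 ± 0.13, and TRIM9, a neuronal ubiquitin ligase, -0.76 ± 0.20 and -0.87 ± 0.20. ASS1, of arginine synthesis, and DDR2, a collagen receptor, were called at both durations with other signs: -0.66 ± 0.12 and -0.85 ± 0.10 at 6 days against 0.57 ± 0.12 and 0.44 ± 0.10 at 3 days.

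Beside FTL, the receptor that imports transferrin-bound iron, TFRC, was at 274 and 308 CPM in Kelly DMSO, 317 and 300 in Kelly STM2457, 115 and 111 in NGP DMSO and 181 and 182 in NGP STM2457. It rose in NGP (0.68 ± 0.08) and had 0.081 ± 0.078 in Kelly. UNC5B, a netrin receptor, was at 112 and 97 CPM in Kelly DMSO, 131 and 123 in Kelly STM2457, 212 and 265 in NGP DMSO and 70.8 and 83.7 in NGP STM2457. It fell in NGP (-1.62 ± 0.10) and had 0.28 ± 0.10 in Kelly, a line difference of -1.91 ± 0.14 at 6 days and of 0.0097 ± 0.14 at 3 days. Of 16 neurotrophic receptors and ligands ALK and RET were the 2 called for the line difference, with opposite signs (1.75% of all genes were called). Of 21 hypoxia and glycolysis genes SLC2A1 and LDHA were called (1.75% of all genes were), and 4 were with ERCC scaling. Of 20 neuronal cytoskeleton and synapse genes GAP43, RBFOX3 and DCX were called (1.75% of all genes were), and limma-voom called 0 of the 20. By chromosome, called genes made up 3.51% of those on chromosome 6 (32 of 911), which holds the main histone cluster, against 1.75% of all genes.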
